A study of Mus musculus with 16 samples.

Results

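Klrb1b and 9 other genes of C-type lectin receptors were followed across 16 hippocampal RNA-seq libraries. The 10 genes (Klrb1b, Clec2d, Clec4a1, Clec4a2, Clec4a3, Clec4d, Clec4e, Clec4n, Clec5a and Clec12a) were taken by symbol from the 55487 genes of the deposited count table. The set was chosen on the reads of Klrb1b, which had none in any library without the tau transgene. The levels of Klrb1b in those libraries are therefore a description, and so are the comparisons of transgenic with non-transgenic mice for all 10 genes, which carry no test.

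The mice came from a cross of PS19 mice with Ch25h knockout mice, and all were female, 40 weeks old by one label and 9.5 months by another. PS19 mice carry human tau (MAPT, isoform 1N4R with P301S, a mutation of familial frontotemporal dementia) as a transgene under the PrP (prion protein) promoter, which overexpresses the protein. Ch25h encodes cholesterol 25-hydroxylase, which makes the oxysterol 25-hydroxycholesterol. The 4 groups of 4 libraries were wild type (WT), Ch25h knockout without the transgene (CKO), the transgene with intact Ch25h (T) and the transgene with the knockout (TCKO). The knockout was not limited to a cell type by any label. RNA was made from the right hippocampus of mice perfused with PBS, so all cells of the tissue were pooled in each library. The labels number the replicates without saying whether each came from its own mouse. A p-value here therefore reflects variation among the libraries as deposited, which may be technical.

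C-type lectin receptors are membrane proteins with a carbohydrate recognition fold that many immune cells use to read sugars, lipids, crystals and other proteins. Some signal through immune adaptor chains encoded by Fcer1g, Tyrobp or Hcst and activate the kinase encoded by Syk, whereas others carry an inhibitory motif that recruits phosphatases such as those encoded by Ptpn6 and Inpp5d. In the brain most of these receptors are known from microglia, border macrophages and infiltrating leukocytes. Klrb1b encodes an inhibitory receptor best known from natural killer cells, and Clec2d encodes its ligand.

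Library totals ran from 15.06 to 34.35 M reads. Ch25h had 0 to 2 reads in each CKO and TCKO library, 18 to 39.68 in WT and 132.93 to 299.64 in T, which fits the labels. Neuron markers summed to 4790 to 7770 CPM (counts per M reads, scaled for composition) in T, 7530 to 10800 in TCKO and 7910 to 10000 in the other groups. Astrocyte markers summed to 4460 to 5120 CPM in T, 3130 to 4260 in TCKO and 2960 to 3550 in the other groups. The part of these differences in the member values was not tested. WT replicate 1 and T replicate 4 stood apart in choroid plexus markers, at 7420 and 7780 CPM against 23.0 to 456 CPM in the other 14 libraries. Calls and values that changed most without them are given both ways.

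All 10 genes lie on mouse chromosome 6 (GENCODE M21, GRCm38), in 3 places. Clec5a stands alone at chr6:40574894-40585821 on the minus strand. The 6 Clec4 genes lie within 368 kb, in the order Clec4a1, Clec4a3, Clec4a2, Clec4n, Clec4d and Clec4e, from chr6:122921848 to chr6:123289870. Klrb1b (chr6:128813706-128826331, minus strand), Clec2d (chr6:129180615-129186534, plus strand) and Clec12a (chr6:129342691-129365303, plus strand) lie within 552 kb in the natural killer gene complex. The receptor gene Klrb1b and its ligand gene Clec2d are separated by 354 kb. Clec4a1, Clec4a2 and Clec4a3 are close paralogs, as are the Klrb1 genes, and no source used here says how reads shared between such copies were assigned.

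Promoters are shown for 4 members with contrasting values: Klrb1b, which was without reads lacking the transgene, Clec5a, which had the highest level, Clec4a3, a tested Clec4 gene without library overlap, and Clec2d, the ligand gene. Each run is the 250 bases before a RefSeq start on GRCm38.p6, 5′ to 3′ on the gene's strand, and capitals mark matches to the motifs searched. The windows are chr6:128826309-128826558 (Klrb1b), chr6:40585806-40586055 (Clec5a), chr6:122952394-122952643 (Clec4a3) and chr6:129180365-129180614 (Clec2d).
Klrb1b: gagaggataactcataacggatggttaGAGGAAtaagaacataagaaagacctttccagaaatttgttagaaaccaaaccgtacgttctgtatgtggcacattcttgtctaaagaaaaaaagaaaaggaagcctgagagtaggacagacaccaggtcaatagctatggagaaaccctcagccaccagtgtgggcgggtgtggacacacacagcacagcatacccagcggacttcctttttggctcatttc
Clec5a: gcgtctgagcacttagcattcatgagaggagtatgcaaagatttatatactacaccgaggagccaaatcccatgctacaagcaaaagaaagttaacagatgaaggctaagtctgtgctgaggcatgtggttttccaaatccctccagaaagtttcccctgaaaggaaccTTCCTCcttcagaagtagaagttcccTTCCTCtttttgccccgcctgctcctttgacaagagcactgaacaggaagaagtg
Clec4a3: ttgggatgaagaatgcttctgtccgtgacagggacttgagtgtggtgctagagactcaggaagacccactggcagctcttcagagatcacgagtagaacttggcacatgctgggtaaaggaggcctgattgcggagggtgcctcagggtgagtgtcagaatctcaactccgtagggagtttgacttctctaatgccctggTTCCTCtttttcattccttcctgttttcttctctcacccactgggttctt
Clec2d: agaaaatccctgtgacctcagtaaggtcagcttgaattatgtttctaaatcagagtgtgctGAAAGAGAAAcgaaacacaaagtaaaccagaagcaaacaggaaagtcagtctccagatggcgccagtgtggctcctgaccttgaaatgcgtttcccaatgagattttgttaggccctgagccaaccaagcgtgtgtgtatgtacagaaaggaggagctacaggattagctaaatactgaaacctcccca
The 3 motifs were searched on both strands in windows that also held the 50 bases after the start. The letters GAGGAA, or TTCCTC when read from the other strand, a core of sites for ETS factors such as the myeloid factor PU.1, were in a window of 7 of the 9 members with a RefSeq promoter, all but Clec4a2 and Clec2d, and in 28.3% of 32851 promoters. The interferon response element core, a GAAA repeated after a gap of 2 bases, was in Clec4d and Clec2d, and in 3.44% of all promoters. In Clec4d it overlapped a match of the first motif. The letters TTGCNNCAA, whose reverse complement is TTGNNGCAA, as in C/EBP sites, were in none of the 9, and in 2.08% of all promoters. The 9 members held 11 windows, and the Clec4a3 window not printed here had no match. Member counts take a match in any window of a gene, whereas the shares count single promoters. These are matches of letters in a window, not sites of binding.

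Klrb1b had 191, 109, 106.32 and 105 reads in T replicates 2, 3, 4 and 5, and 9, 1, 3 and 0 reads in TCKO replicates 2, 3, 4 and 5. It had 0 reads in each of the 4 WT and 4 CKO libraries. All T libraries were above all TCKO libraries, and TCKO replicate 5 had no read at all. The mean was 4.19 ± 1.3 CPM in T and 0.133 ± 0.178 CPM in TCKO (SD, n = 4 each), so that TCKO held 3.18% of the T level. TCKO replicate 2 gave 9 of the 13 TCKO reads, and without it TCKO held 1.14%. Counting 3 reads over a group as the least that could be told from 0, the WT mean was below 0.0248 CPM and the CKO mean below 0.0333 CPM. Of the 18565 genes tested, 4 had no read in WT and CKO, and the other 3, named after their values were seen, were Gbp2b, Apoc4 and 4930590L14Rik.

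The choice of Klrb1b used its level without the transgene, so loss of Ch25h in transgenic mice was tested. The log2 fold change of TCKO against T was -5.00 ± 0.74 (SE) with an adjusted p of 0.00146 (edgeR quasi-likelihood test, Benjamini-Hochberg over all 18565 genes). As a ratio of reads per library size it was 34.6-fold, with a 95% counting interval of 20 to 65.3 that leaves out the spread between libraries. Over 25 alternative settings the log2 fold change stayed between -6.33 and -4.60, with a highest adjusted p of 0.00697. Klrb1b passed the filter on low counts (0.362 CPM in 4 libraries) through the T libraries, so a gene with this profile could enter the test only by being high there. With no filter, the log2 fold change was -5.04 ± 0.68 (edgeR adjusted p = 5.64e-05). Without the transgene Ch25h loss could not be compared, as both groups had 0 reads.

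**Figure D1:**
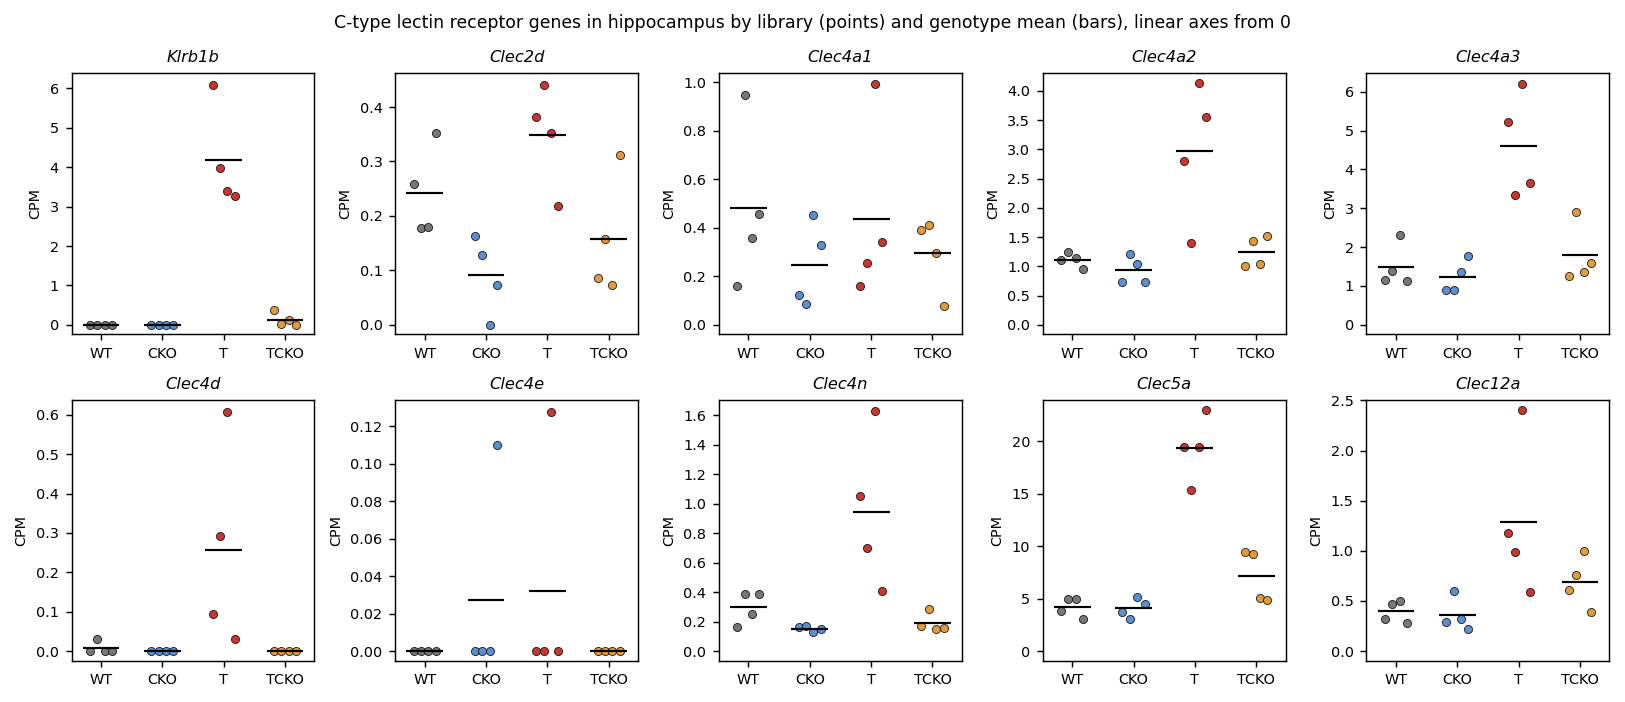
Normalised level (CPM, linear axes from 0, each panel with its own scale) of the 10 genes in each library (points) with the genotype mean (bars), 4 libraries per genotype. Klrb1b is at 0 in WT and CKO, between 3.28 and 6.08 CPM in T and at most 0.39 CPM in TCKO, and Clec5a is between 15.4 and 23.0 CPM in T.

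The ligand gene Clec2d did not share this profile. It had 8, 6, 5 and 10 reads in WT replicates 1, 2, 4 and 5, and 4, 3, 0 and 2 in the same CKO replicates. T replicates 2 to 5 had 12, 12, 11 and 7 reads, and the TCKO replicates 2, 5, 2 and 8. In CPM every CKO library was below every WT library (0.0917 ± 0.0716 against 0.242 ± 0.0827), whereas WT and T overlapped, as did T and TCKO. The gene did not pass the filter. When no filter was applied, its log2 fold change was -1.29 ± 0.73 in CKO against WT (edgeR adjusted p = 0.671) and -1.14 ± 0.68 in TCKO against T (adjusted p = 0.417). A change of the Clec2d mRNA was not detectable at this depth, and of all tested genes 4.06% had CKO libraries wholly below WT.

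The Klrb1 relatives and Clec2 genes other than the members numbered 13, of which 3 passed the filter. Klrb1a, which encodes an activating relative of the Klrb1b receptor, had 36, 29, 24 and 36 reads in the T libraries and 2, 13, 3 and 6 in the TCKO libraries. It had at most 3 reads in any WT or CKO library. The T libraries were all above the others, and Klrb1a fell in TCKO against T by 2.23 ± 0.62 on the log2 scale (edgeR adjusted p = 0.0251). It too entered the test only through its T libraries, and with no filter the change was -2.26 ± 0.67 (adjusted p = 0.0438). The call was lost without T replicate 2 (0.0734) or 3 (0.0546), or without TCKO replicate 2 (0.080), 4 (0.0622) or 5 (0.0679). Klrb1c, which encodes the NK1.1 antigen, had 27, 12, 17 and 26 reads in T and 7, 2, 0 and 0 in TCKO. Its log2 fold change was -2.87 ± 0.94 and did not pass the test (edgeR adjusted p = 0.0528). The change did pass in limma voom (0.00915), and in edgeR without WT replicate 1 (0.0488) or TCKO replicate 2 (0.017). TCKO held 20.6% of the T level for Klrb1a and 13.8% for Klrb1c, against 3.18% for Klrb1b (1.14% without TCKO replicate 2).

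The other genes of that list were low or did not differ. Clec2i, a ligand gene of the family, had 18, 8, 7 and 17 reads in T, 5, 0, 0 and 1 in TCKO, and 5 in total over the 8 libraries without the transgene. Klrb1f had 0 to 8 reads per library, Klrb1 0 to 4, and Clec2f, Clec2g and Clec2h at most 3. Klrb1-ps1, Clec2e, Clec2j and Clec2m had none. Clec2l, a neuronal member of the Clec2 group, had 143 to 301 reads in every library and a log2 fold change of -0.07 ± 0.18 in TCKO against T (edgeR adjusted p = 0.854). High counts in T with low counts elsewhere were thus seen in Klrb1a, Klrb1b, Klrb1c and Clec2i of this group.

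**Figure D2:**
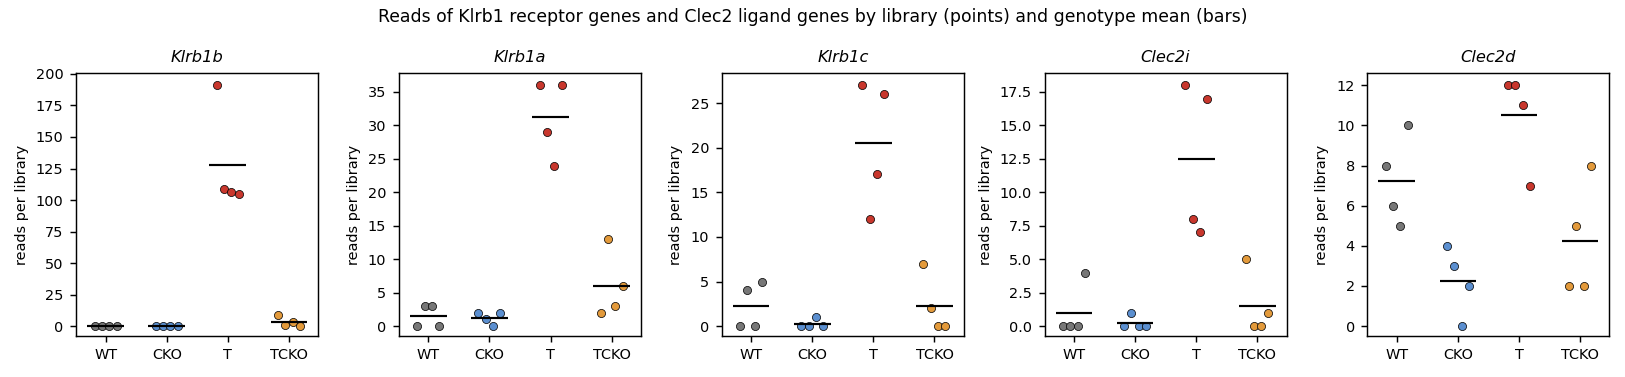
Reads per library (linear axes from 0) of 3 Klrb1 receptor genes and 2 Clec2 ligand genes, each point 1 library and each bar the mean of the 4 libraries of a genotype. Klrb1b reaches 191 reads in T against at most 9 in TCKO, while Clec2d lies between 0 and 12 reads in all 16 libraries.

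Clec5a encodes an activating receptor of myeloid cells that pairs with the adaptor chains encoded by Tyrobp and Hcst. It was the member with the most reads: 120, 167, 138 and 86 in WT, 92, 71, 79 and 122 in CKO, 614, 421, 610 and 737 in T, and 218, 293, 137 and 125 in TCKO. In CPM every T library was above every other library, and TCKO replicates 2 and 3, at 9.45 and 9.28 CPM, were higher than replicates 4 and 5, at 5.08 and 4.88 CPM. Group means (± SD, n = 4 each) without the transgene were 4.21 ± 0.934 CPM with Ch25h and 4.11 ± 0.898 CPM without it. With the transgene they were 19.4 ± 3.1 and 7.17 ± 2.54 CPM.

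With the transgene, Clec5a fell by 1.43 ± 0.24 on the log2 scale with loss of Ch25h (edgeR adjusted p = 0.000791), to 37.0% of the T mean. Its change in CKO against WT was -0.04 ± 0.25 (adjusted p = 0.971). The difference between these changes, tested as an interaction of genotype and transgene, was -1.39 ± 0.34 (adjusted p = 0.0361), and 2.45% of all tested genes had a negative interaction past the threshold. That call was lost with the replicate number as a block (0.0585) and without the choroid-rich libraries (0.0996). It was also lost on leaving out any of 8 of the 16 libraries (WT replicate 1 or 5, CKO replicate 1, 4 or 5, T replicate 2 or 4, or TCKO replicate 5), with adjusted p from 0.0591 to 0.0822. The fall in TCKO against T passed under all 25 settings, at a highest adjusted p of 0.0068.

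Clec4n, Clec4e and Clec4d encode receptors of the Dectin-2 group, which bind microbial glycans or glycolipids and signal through the chain encoded by Fcer1g. Clec4n, the Dectin-2 gene itself, had 33, 19, 51 and 13 reads in T and 4, 9, 4 and 4 in TCKO, against 5, 13, 7 and 11 in WT and 4, 4, 2 and 4 in CKO. The T libraries did not overlap those of any other group in CPM. It fell in TCKO against T by 2.27 ± 0.47 on the log2 scale (edgeR adjusted p = 0.00404), to 20.2% of the T mean, and was called under all 24 settings that tested it. Without T replicate 4 the change was -1.87 ± 0.47 (adjusted p = 0.0211). Its interaction was -1.35 ± 0.70 and did not pass (adjusted p = 0.319). Clec4n, like Klrb1b, passed the filter through its T libraries, and with no filter its change was -2.30 ± 0.55 (adjusted p = 0.00955).

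Clec4d, whose product forms a complex with that of Clec4e, had 3, 8, 19 and 1 reads in T and none in any TCKO or CKO library, with 1 read in WT. With 31 reads in T and 0 in TCKO, a floor of 3 reads put the level at least 9.08-fold lower in TCKO. This bound leaves out the spread between libraries. The gene did not pass the filter. Tested without a filter, it was called in TCKO against T (edgeR adjusted p = 0.0254), with 19 of the 31 reads from T replicate 4. Without that library T held 12 reads, a mean of 0.140 CPM against 0.257 CPM with it. Clec4e, the Mincle gene, had 4 reads in T replicate 4, 3 in CKO replicate 5 and none in the other 14 libraries. At this depth no change of Clec4e between any groups was detectable.

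Clec4a2 encodes the dendritic cell immunoreceptor, an inhibitory receptor with a cytoplasmic motif that recruits phosphatases, and Clec4a1 and Clec4a3 are its neighbours and relatives. Clec4a3 had 164, 91, 194 and 117 reads in T and 29, 92, 37 and 41 in TCKO, against 36, 47, 64 and 32 in WT and 22, 21, 21 and 48 in CKO. In CPM the T libraries, at 3.33 to 6.21, were all above the TCKO libraries, of which replicate 3 was the highest at 2.91. The mean fell from 4.6 ± 1.35 to 1.79 ± 0.766 CPM, a log2 change of -1.36 ± 0.34 (edgeR adjusted p = 0.0139), or -1.18 ± 0.35 (0.0483) without T replicate 4.

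Clec4a2 had 88, 38, 129 and 114 reads in T and 23, 45, 28 and 39 in TCKO, against 34, 42, 32 and 27 in WT and 18, 28, 16 and 20 in CKO. T replicate 3, at 1.39 CPM, was within the TCKO range of 0.998 to 1.52 CPM, and the other 3 T libraries were above it. The log2 change of TCKO against T was -1.25 ± 0.31 (edgeR adjusted p = 0.0143). This call was lost without T replicate 4 (0.0543), in a fit of only the 8 libraries compared (0.0576), and without both choroid-rich libraries (0.0639), where that of Clec4a3 was lost too (0.0512). Clec4a1 had 2 to 32 reads per library, overlapped between all groups, and had a log2 change of -0.56 ± 0.68 (adjusted p = 0.639), which was 0.22 without T replicate 4.

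Clec12a encodes an inhibitory myeloid receptor for uric acid crystals. It had 37, 27, 75 and 19 reads in T and 14, 24, 27 and 10 in TCKO, against 10, 16, 14 and 8 in WT and 7, 14, 5 and 6 in CKO. In CPM T replicates 3 and 5 lay within the TCKO range, and T replicate 4 was far above the other libraries. The mean was 1.29 ± 0.779 CPM in T and 0.69 ± 0.257 in TCKO, and the log2 change of -0.90 ± 0.44 did not pass the test (edgeR adjusted p = 0.201). Without T replicate 4 it was -0.41 ± 0.43 (adjusted p = 0.604).

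Of the 7 members that passed the filter, 5 were called lower in TCKO than in T (Klrb1b, Clec4n, Clec5a, Clec4a3 and Clec4a2) and none higher. Among all 18565 genes, 8.05% were called lower and the median log2 change was 0.02. Klrb1b and Clec4n could be tested only because they were high in T, so the count of members is not read against that share. Of the 5 members that did not depend on T to pass, 3 were called lower. Leaving out both choroid-rich libraries, a setting chosen after the data were seen, 3 members were called. Library ranges did not overlap for 5 of the 10 members (Klrb1b, Clec4a3, Clec4d, Clec4n and Clec5a). Of all tested genes, 9.65% had TCKO wholly below T and 5.14% wholly above. Clec4d was not among the tested genes, and Klrb1b and Clec4n were tested only through T. This count is therefore not read against those shares either. Among the 5 members that did not depend on T, only Clec4a3 and Clec5a were without overlap. The T level kept in TCKO ranged from 3.18% for Klrb1b (1.14% without TCKO replicate 2) to 67.2% for Clec4a1 among members with reads in both groups.

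**Figure D3:**
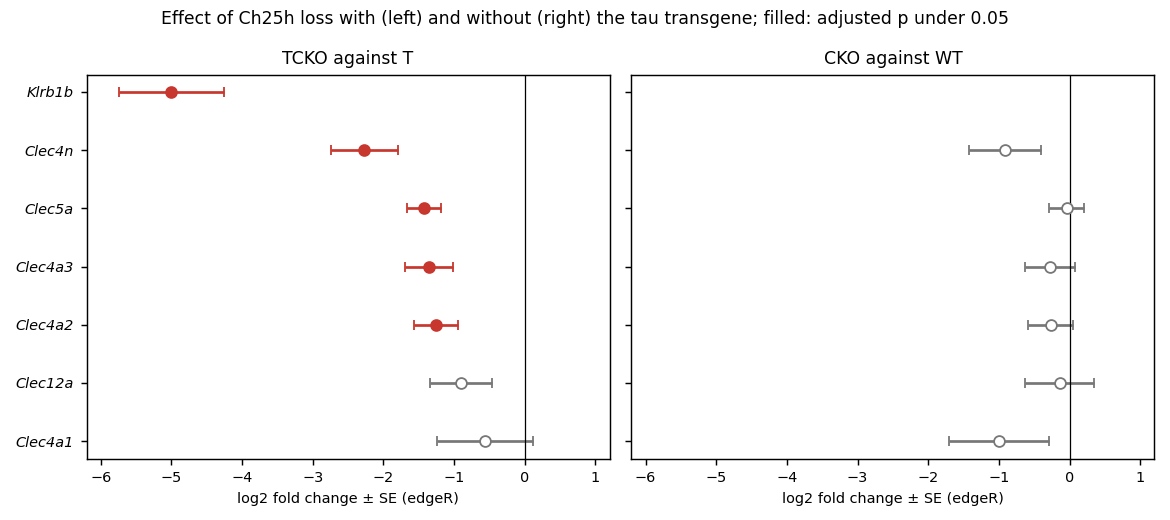
Log2 fold change (points) with its standard error (bars) from edgeR for the 7 members that passed the filter, with 4 libraries per genotype. In TCKO against T (left) Klrb1b stands at -5.00 and 5 members pass an adjusted p of 0.05 (filled), and in CKO against WT (right) none of the 6 members with reads passes.

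Without the transgene, loss of Ch25h called none of the 6 members that could be tested, and 0.0108% of all genes (Ch25h and Golga7b). None of the 6 passed an unadjusted p of 0.05 either, while 2098 genes did, and DESeq2 and limma voom also called none of them. Log2 changes of CKO against WT were -1.0 ± 0.71 for Clec4a1, -0.92 ± 0.51 for Clec4n, -0.28 ± 0.35 for Clec4a3, -0.27 ± 0.32 for Clec4a2 and -0.14 ± 0.49 for Clec12a. The lowest adjusted p among them was 0.511, for Clec4n. Aside from Clec5a, no interaction passed: the values were -1.08 ± 0.48 for Clec4a3 (edgeR adjusted p = 0.236) and -0.98 ± 0.45 for Clec4a2 (0.244), and the other 3 were further from the threshold. The Ch25h effect with and without the transgene was therefore not shown to differ for these genes.

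Between transgenic and wild-type mice, the contrast behind the choice of genes, the values are given without a test. T was higher than WT by a log2 value of 2.20 ± 0.25 for Clec5a, 1.69 ± 0.46 for Clec12a, 1.66 ± 0.44 for Clec4n, 1.62 ± 0.34 for Clec4a3 and 1.41 ± 0.31 for Clec4a2 (SE, n = 4 each). The Clec4a1 value was -0.14 ± 0.66. Without T replicate 4 the values were 1.21 ± 0.44 for Clec12a, 1.26 ± 0.46 for Clec4n, 1.44 ± 0.36 for Clec4a3, 1.22 ± 0.32 for Clec4a2 and -0.92 ± 0.68 for Clec4a1. As a description that supports nothing, since the genes were chosen on this contrast, 6 of the 7 members passed the threshold used elsewhere, and 13% of all genes did in that direction. The count was 5 with the replicate block and 4 without T replicate 4. Clec4d had 31 reads in T against 1 in WT. In CPM the T libraries were wholly above WT for 7 of the 10 members, all but Clec2d, Clec4a1 and Clec4e, and for 13.3% of all tested genes. The 7 include Clec4d, which was not tested, so the count is not read against that share.

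TCKO against CKO is likewise a description, since the choice used the CKO libraries too. No member passed the threshold in edgeR, while 0.350% of all genes were higher and 0.189% lower. In DESeq2 Clec5a and Klrb1b passed, and nothing is read from this. For Klrb1b it set 13 reads against the CKO zeros that chose the set. The log2 values were 0.94 ± 0.48 for Clec12a, 0.81 ± 0.25 for Clec5a, 0.54 ± 0.35 for Clec4a3, 0.43 ± 0.32 for Clec4a2, 0.31 ± 0.53 for Clec4n and 0.29 ± 0.73 for Clec4a1. Klrb1b had 13 reads in TCKO, in 3 of 4 libraries, and 0 in CKO. Every member overlapped between TCKO and CKO, while 5.32% of all tested genes were wholly higher in TCKO and 4.93% wholly lower. These comparisons share groups with those above (T, CKO or TCKO), so their values are not independent of them.

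Per transcript length the order of the members was led by Clec5a in every genotype, and no library of another member reached it. In TPM (transcripts per M transcripts, as deposited), Clec5a was at 19.9 ± 2.99 in T, 4.51 ± 1.15 in WT, 4.51 ± 0.948 in CKO and 7.68 ± 2.63 in TCKO (SD, n = 4 each). In T it was followed by Clec4a3 (5.35 ± 1.39), Clec4a2 (3.98 ± 1.55) and Klrb1b (2.58 ± 0.744), whose neighbouring ranges overlapped. Klrb1b was above the 6 others, led by Clec4n at 1.05 ± 0.555 TPM. In TCKO the order after Clec5a was Clec4a3 (2.16 ± 0.926) and Clec4a2 (1.74 ± 0.366), and Klrb1b stood at 0.0988 ± 0.111 TPM. That was the lowest mean of the members with reads in TCKO, but its range of 0 to 0.248 TPM overlapped those of Clec4a1, Clec4n, Clec2d and Clec12a.

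In bulk tissue, fewer cells of a type and less RNA per cell cannot be told apart. Microglial markers moved with the members: the 12 homeostatic microglia genes summed to 1320 to 1670 CPM in T and 613 to 1070 in TCKO, against 510 to 683 in WT and 562 to 586 in CKO. The 14 pan-microglia and macrophage genes summed to 3660 to 4890 CPM in T and 651 to 1410 in TCKO, against 469 to 704 in WT and 504 to 605 in CKO. Of the first list 7 fell and 1 rose in TCKO against T (edgeR), and of the second all 14 fell, with medians of -0.69 and -2.06. The gene that rose, Slc2a5 (0.54 ± 0.16, adjusted p = 0.0412), lost its call under 16 of 25 settings, and Gpr34, among those that fell, under 5.

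Relative to those markers Klrb1b remained separate. Per 1000 CPM of the homeostatic list it was 3.64, 3.03, 2.22 and 2.07 in the T libraries and 0.366, 0.0345, 0.181 and 0 in the TCKO libraries. Per 1000 CPM of the pan-microglia list it was between 0.868 and 1.24 in T and between 0 and 0.278 in TCKO. On both scales the T libraries were above the TCKO libraries. Clec4d had no TCKO reads, so it was at 0 there on any such scale.

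For Clec5a the direction depended on the list. Per 1000 CPM of the homeostatic list it was 12.7 ± 1.33 in T and 8.64 ± 1.18 in TCKO, without overlap, and 7.05 ± 0.809 in WT. Per 1000 CPM of the pan-microglia list it was 4.86 ± 1.0 in T, 6.89 ± 0.659 in TCKO and 7.21 ± 0.815 in WT, and T and TCKO overlapped. The log2 ratio of TCKO to T was -1.39 and -0.29 on these scales for Clec4n, -0.42 and 0.67 for Clec4a3, and -0.25 and 0.86 for Clec4a2. Libraries of these 3 genes and of Clec12a, Clec4a1 and Clec2d overlapped between T and TCKO on both scales.

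**Figure D4:**
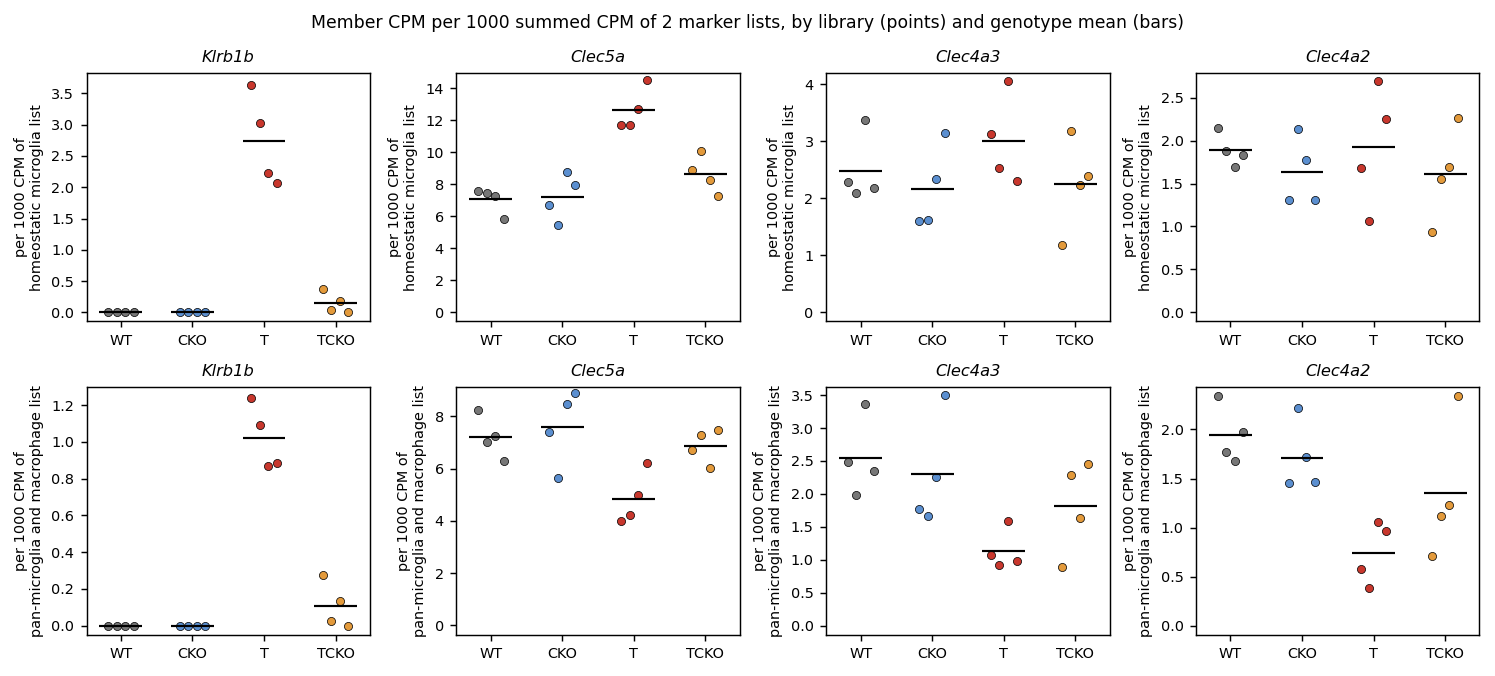
Level of 4 members per 1000 summed CPM of the homeostatic microglia list (top) and of the pan-microglia and macrophage list (bottom), each point 1 library and each bar the mean of 4, linear axes from 0. Klrb1b is below T in all TCKO libraries on both scales, whereas Clec5a in TCKO is below T on the upper scale (8.64 against 12.7) and above it on the lower scale (6.89 against 4.86).

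Markers of some other leukocytes also differed between groups. The 9 border macrophage genes summed to 20.3 to 60.7 CPM in T, 8.34 to 12.7 in TCKO and 7.33 to 18.3 in WT and CKO. All 9 were tested, and 4 fell in TCKO against T (edgeR) with none higher, at a median of -1.41. The 12 T cell genes summed to 15.1 to 22.8 CPM in T, and to 3.04 to 7.57 in the other groups, and 6 of the 11 tested fell in TCKO against T. The 12 natural killer and innate lymphoid genes summed to 9.02 to 16.9 CPM in T and 3.86 to 9.98 in TCKO, and to 1.89 to 12.9 in WT and CKO. Among their defining genes, Ncr1 had 6 reads over the T libraries and 6 over the TCKO libraries, Prf1 40 and 10, Gzma 8 and 1, Klre1 12 and 0 and Klra8 2 and 0, and Ncr1, Prf1 and Klra8 had none in WT and CKO. The 9 neutrophil genes summed to 1.62 to 4.81 CPM in T and 0.297 to 1.95 CPM elsewhere, with Ly6g at 0 in all 16 libraries. None of the 3 neutrophil genes tested was called in TCKO against T. The 9 dendritic cell genes summed to 7.33 to 10.7 CPM in T and 6.03 to 9.0 elsewhere, and none of 6 tested was called. Sums of the 9 monocyte genes were 53.8 to 75.3 CPM in T, 74.3 to 111 in TCKO and 63.3 to 162 in WT and CKO. Of 7 monocyte genes tested, 4 fell and 1 rose in TCKO against T. The part of these cells in the member values was not tested.

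Among the T libraries, replicate 4 was the highest for 7 of the 10 members, all of them apart from Klrb1b, Clec5a and Clec2d. Relative to the mean of the 4 T libraries it was at 1.35 for Clec4a3, 1.39 for Clec4a2, 1.72 for Clec4n, 1.86 for Clec12a, 2.27 for Clec4a1 and 2.37 for Clec4d. Border macrophage markers were also highest there (60.7 CPM against 20.3 to 34.2 in the other T libraries, 1.73 times the mean), as were choroid plexus markers (3.80 times), while the homeostatic microglia list was at 1.00 times. Klrb1b was highest in T replicate 2, at 1.45 times the mean, and was at 0.810 times in replicate 4. The part of border macrophages and choroid plexus in these values was not tested.

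**Figure D5:**
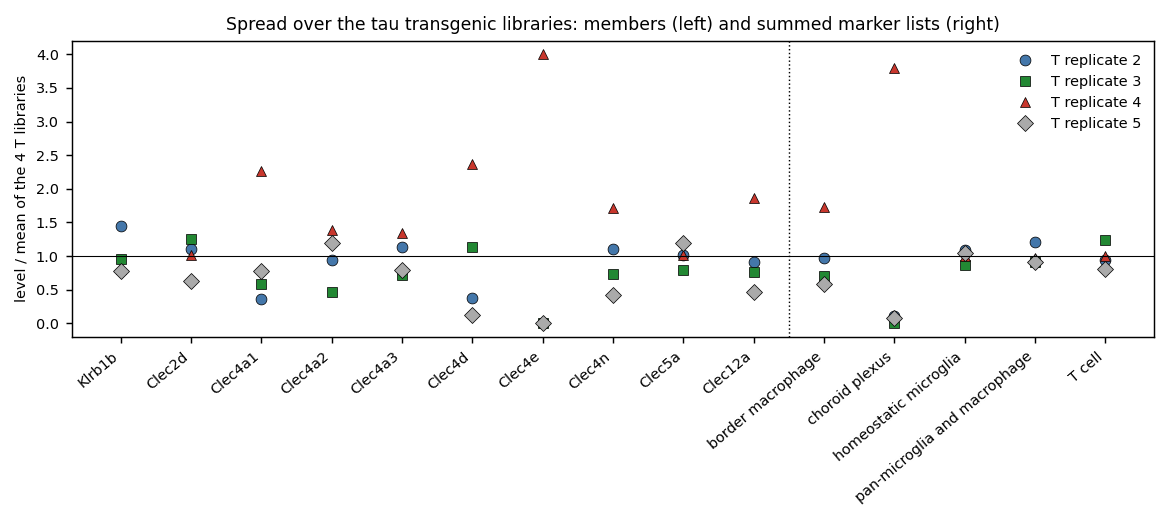
Level in each T library (symbols) divided by the mean of the 4 T libraries, for the 10 members (left of the dotted line, CPM) and for summed marker lists (right). T replicate 4 (triangles) is the highest for 7 members and for the border macrophage (1.73) and choroid plexus (3.80) lists, but is at 0.810 for Klrb1b.

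Partner and pathway genes of the receptors were counted from lists chosen with earlier results known. Of the 23 adaptor and activating signalling genes, all tested, 13 fell in TCKO against T and none rose, with a median of -0.81. The adaptor genes Fcer1g (-2.06 ± 0.23, edgeR adjusted p = 3.56e-05) and Tyrobp (-2.06 ± 0.25, 5.46e-05) fell, as did Hcst (-2.31 ± 0.58, 0.0141, or 0.0535 without T replicate 2). The kinase gene Syk (-0.71 ± 0.37, 0.225) and the adaptor gene Card9 (-0.29 ± 0.52, 0.765) did not pass. Of 8 further genes (6 phosphatase genes and the adaptor genes Dok1 and Dok2) 5 fell, with a median of -1.15. Of these 5, Ptpn22 lost its call under 13 of 24 settings. Among the others were the phosphatase genes Ptpn6 (-1.87 ± 0.28, 0.000319), Inpp5d (-1.12 ± 0.16, 0.000165) and Ptprc (-2.11 ± 0.34, 0.000575). These genes are used by many immune receptors, and none of the lists had a gene called in CKO against WT.

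Known targets of Mincle and Dectin signalling numbered 17, of which 9 passed the filter. In TCKO against T, 5 fell and 1 rose, with a median of -2.02. Cxcl1, a neutrophil chemokine, fell by 3.50 ± 0.66 on the log2 scale (edgeR adjusted p = 0.00217), and Il1b, the interleukin 1 beta gene, by 2.02 ± 0.39 (0.00265). Egr3, an early response transcription factor that neurons also express, was the gene that rose, by 0.99 ± 0.16 (0.000558). Each of these 3 was called under all alternatives that tested it. The part of Mincle or Dectin signalling in the values of these genes was not tested.

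Other C-type lectin genes of the same regions and families mostly did not pass. Of 31 myeloid and endothelial C-type lectin genes 20 were tested, and 4 fell in TCKO against T with none higher, at a median of -0.62. Cd302 (-0.76 ± 0.13, edgeR adjusted p = 0.000746), Cd93 (-0.72 ± 0.18, 0.0130, or 0.0558 without T replicate 2) and Cd209f (-2.10 ± 0.62, 0.0336) were among them. The Cd209f call was lost under 8 settings, and its change was -0.85 without T replicate 4 (0.238). Of 24 other lectin-like lymphocyte receptor genes 3 were tested. Cd69 (-3.61 ± 0.79, 0.00625), in the natural killer complex, fell, and so did the B cell and macrophage receptor gene Cd72 (-2.52 ± 0.56, 0.00737), which lies outside it on chromosome 4.

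Clec7a, which encodes Dectin-1, a receptor for fungal beta-glucan and a known marker of disease-associated microglia, had 4252, 2357, 2925 and 3012 reads in T and 399, 432, 47 and 43 in TCKO. It had 4 to 35 reads in WT and CKO. The fall in TCKO against T was -3.57 ± 0.57 on the log2 scale (edgeR adjusted p = 0.000541), to 8.41% of the T mean. Klrb1b kept 3.18% (1.14% without TCKO replicate 2) and Clec4n 20.2%, and a difference between these genes was not tested.

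Genes with a profile most like that of Klrb1b were sought by the mean absolute difference between log2 CPM profiles over the 16 libraries, each centred on its own mean. Among 14770 named genes, where the median difference was 2.18, the closest were Ccl2 (0.39), Apoc4 (0.42), Cybb (0.44), Cd52 (0.48) and Atp6v0d2 (0.48). Their reads summed over T and TCKO were 1741 and 92 for the chemokine gene Ccl2, 299 and 14 for the apolipoprotein gene Apoc4, and 4852 and 339 for Cybb, a subunit of the phagocyte oxidase. Cd52, a lymphocyte and myeloid surface antigen, had 8127 and 862, and Atp6v0d2, a proton pump subunit, had 1165 and 13. All 5 share with Klrb1b low values in the same 8 libraries without the transgene, which brings profiles close by this measure.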

How the data were processed

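Hippocampal RNA of 16 libraries was converted with an oligo-dT SMARTer kit, per the labels' protocols. Per the submitters' processing notes, bcl2fastq, STAR 2.5.1a, Subread and featureCounts 1.4.6-p5 were used with build GRCm38, with no roles given. The authors deposited estimated counts per gene by a program that no source used here names; 74.53% of the values above 0 are whole. Each sample's own file adds TPM, also made by the authors. Effective lengths deposited by the authors were used for 1 check of levels. Repeated lines of a gene (287 of 55774) were counted once, and 887792 values equalled the per-sample files within 0.01 reads. No 2 replicates agreed within sampling noise (chi-square per degree of freedom of 10.22 or more).

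After rounding, edgeR 4.0.16 under R 4.3.3 was used (TMM, filterByExpr with a minimum count of 10, quasi-likelihood test, 1 mean per genotype over 16 libraries, Benjamini-Hochberg adjustment over 18565 genes, threshold 0.05); the step was tested on simulated data. CPM uses TMM-scaled library sizes. Folds against a group with no reads use a floor of 3 counts over the group. That floor and the 95% intervals cover counting error only.

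The members and gene lists were chosen with earlier results of these data known. The genes named were the 10 members, the Klrb1 and Clec2 list, up to 3 called genes of each other list by p in TCKO against T (a part of these is printed), the textbook partners Clec7a, Fcer1g, Tyrobp, Syk, Card9, Ptpn6 and Inpp5d, Ch25h and Mapt (the latter not printed), and the 5 genes most like Klrb1b. Same-numbered libraries deviated together in T against WT (correlations 0.12, 0.14 and 0.30), a pairing seen in the data and not given by the labels. The main fit did not use it, and the replicate block was run only as an alternative. In the other comparisons the signs were mixed. Correlations ran from -0.05 to 0.27 in CKO against WT, -0.14 to 0.17 in TCKO against T and -0.03 to 0.04 in TCKO against CKO. The alternatives were DESeq2 1.42.0, limma 3.58.1 (voom), other scalings and filters, a fit of the 8 compared libraries, the replicate block, leaving out each library and, chosen after seeing the data, leaving out the choroid-rich libraries. Promoters came from RefSeq on GRCm38.p6. Protein features and the Clec4n promoter are not analysed here.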

Additional observations from a re-analysis of the deposited data

Results flagged for a closer look

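In 34 groups of 4 libraries a single library was compared with the rest, and 3 stood apart. Chance flags about 1 in 20 groups of continuous values, a rate that does not hold here, since the other 3 libraries of each had 0 reads. WT replicate 2 held the only WT read of Clec4d (0.0297 CPM). CKO replicate 5 held all CKO reads of Clec4e (0.11 CPM, 3 reads), and T replicate 4 all T reads of that gene (0.128 CPM, 4 reads). The effect of Ch25h loss on Clec5a differed with the transgene (interaction of -1.39 on the log2 scale, edgeR adjusted p = 0.0361), a call lost under the settings named with it in the report.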

How the results depend on the processing

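In TCKO against T, 5 members were called, and 3 without the choroid-rich libraries. Leaving out 1 library at a time gave 4 to 5 there and 4 to 6 in T against WT. In the interaction 1 member (Clec5a) was called, 0 with the replicate block, 0 without the choroid-rich libraries, and 0 to 1 leaving out 1 library. In TCKO against CKO 0 were called by edgeR and 2 by DESeq2, of which Klrb1b was set against the CKO zeros that chose it. The replicate block left the 5 calls in TCKO against T. Counts in T against WT and TCKO against CKO are descriptions. Of 753 recomputed member fold changes, 719 kept sign and side of the threshold, 19 lost the call, 1 gained it and 14 that were not called changed sign; the cause was not tested. By CPM over effective length, 0 of 40 member shares moved by over 1 SD. Clec2d, Clec4d and Clec4e had too few reads to pass the filter, and Clec4e could not show a change.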
